A study of Mus musculus with 18 samples.

Results

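Wnt ligands, their Frizzled and LRP receptors, the secreted antagonists that hold them back and a few genes that tune receptor or beta-catenin turnover were followed in a mouse model of acute gout. The set was every gene whose symbol is Wnt, Fzd, Sfrp or Dkk plus a digit (with 1 symbol left out), together with Frzb, Wif1, Axin1, Axin2, Lrp5, Lrp6, Rspo1, Rspo2, Rspo3, Znrf3, Rnf43 and Lef1. Of 48 such symbols, 46 reached a mean of 10 counts in at least 1 tissue, out of 55359 genes in each count table, and Dkk4 and Wnt8a did not. The 46 genes were 17 Wnt ligands, 10 Frizzled receptors, 2 LRP co-receptors, 3 R-spondins, 2 receptor ubiquitin ligases, 9 secreted antagonists and 3 intracellular genes.

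All groups were C57BL/6 mice aged 10 weeks, and the labels name no transgene or mutant allele and give no sex. The titles of the control libraries read WT, while those of the MSU libraries give no genotype word. Each mouse received 100 µl at the right ankle, and tissue was taken 8 h later. The protocol names both the joint and a subcutaneous route, so the exact site is not settled. The MSU groups received monosodium urate crystals, which deposit in joints in gout, and the control groups received PBS, although the sample labels call the controls untreated. Bulk RNA-seq libraries came from the ankle joint, the spinal cord and the dorsal root ganglia (DRG, the clusters of sensory neuron cell bodies beside the cord), with 3 control and 3 MSU libraries per tissue and 18 in all. As the labels do not tie libraries to separate animals, the p-values measure only the spread between these samples, which may be technical. Libraries held 11633000 to 38813000 counts (to 5 digits), and 3 counts corresponded to 0.0727 to 0.282 CPM (read counts scaled to library size), a floor that covers counting error only.

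Wnt proteins are lipid-modified ligands that bind a Frizzled receptor together with LRP5 or LRP6. In the canonical branch this stops the axin complex from destroying beta-catenin, which then acts with TCF/LEF factors on target genes such as Axin2, while other branches act on cell polarity and calcium. Secreted frizzled-related proteins (Sfrp, Frzb) and Wif1 bind the ligands, and Dkk1 and Dkk2 bind the LRP co-receptors. R-spondins keep Frizzled receptors at the surface by clearing the ligases Znrf3 and Rnf43. In joints the pathway is known for its part in bone and cartilage turnover, in skin for hair follicles and epidermis, and in the central nervous system for synapses and for the barrier properties of blood vessels.

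Promoters of 3 genes whose transcripts changed in more than 1 tissue are shown because they let the sequence be read beside those changes. They are Axin2, the scaffold and classical beta-catenin target, Frzb, a secreted antagonist, and Fzd4, a receptor. Each runs 5′ to 3′ on the gene's strand from 250 bases before to 50 bases after the annotated start, taken from the RefSeq table (build GRCm38.p6), at chr11:108920099-108920398 (plus strand), chr2:80447347-80447646 (minus strand) and chr7:89404116-89404415 (plus strand). Capitals mark the TCF/LEF core CTTTGA, which in Frzb is read as TCAAAG from the other strand.

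Axin2 promoter: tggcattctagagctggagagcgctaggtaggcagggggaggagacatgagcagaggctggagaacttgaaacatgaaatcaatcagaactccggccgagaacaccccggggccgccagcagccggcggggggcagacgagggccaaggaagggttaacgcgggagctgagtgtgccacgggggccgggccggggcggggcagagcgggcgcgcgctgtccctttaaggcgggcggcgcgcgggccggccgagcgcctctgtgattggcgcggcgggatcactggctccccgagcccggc

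Frzb promoter: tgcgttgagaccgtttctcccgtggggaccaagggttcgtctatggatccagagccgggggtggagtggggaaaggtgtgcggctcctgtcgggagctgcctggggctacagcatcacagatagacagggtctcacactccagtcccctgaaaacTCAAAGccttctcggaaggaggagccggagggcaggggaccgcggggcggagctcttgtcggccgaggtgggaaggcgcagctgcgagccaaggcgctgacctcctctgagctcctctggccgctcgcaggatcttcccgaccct

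Fzd4 promoter: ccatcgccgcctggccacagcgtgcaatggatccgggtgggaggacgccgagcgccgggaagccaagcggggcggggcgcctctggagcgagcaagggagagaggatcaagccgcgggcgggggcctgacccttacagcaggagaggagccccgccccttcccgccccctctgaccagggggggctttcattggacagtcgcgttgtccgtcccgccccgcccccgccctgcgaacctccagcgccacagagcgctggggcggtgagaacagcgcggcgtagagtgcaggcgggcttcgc

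Of the 46 genes, 30 had at least 1 promoter in that table, 37 promoters in all. The core CTTTGA, searched on both strands, was found in 6 of the 37 (16.2%), against 16.0% of 32851 mouse promoters of the same length, so its share was near that of promoters at large. The matches lay in Frzb, Fzd1, Lef1, Wnt5b, Wnt11 and Dkk1, and in Frzb the match began 95 bases before the start. Axin2 and Fzd4 held no CTTTGA within this window. The AP-1 motif TGANTCA was found in 1 of the 37, that of Wnt5b (2.70%, against 7.81% of all promoters). Neither an NF-kB motif nor a glucocorticoid receptor motif, searched likewise, was found in the 37, against 1.63% and 0.475% of all promoters. Matches of different motifs did not overlap, and all are matches of letters, with no measure of binding.

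The control libraries show which parts of the pathway each tissue transcribes. Levels between genes are compared here as CPM per kilobase of exon (mean ± SD, n = 3), with exon lengths from GENCODE M21. Genes grouped here as secreted antagonists, with Dkk3 placed there by its family, held the highest levels in every tissue. In the ankle they were Wif1 at 38.5 ± 1.44, Sfrp4 at 31.3 ± 3.66 and Dkk3, a divergent Dkk family protein, at 29.7 ± 1.70 CPM per kilobase. In the DRG, Dkk3 stood at 64.1 ± 2.07, Sfrp5 at 57.5 ± 2.16 and Frzb at 18.3 ± 4.07 CPM per kilobase. The same 3 genes led in the spinal cord, with Dkk3 at 42.0 ± 2.83, Sfrp5 at 10.8 ± 1.68 and Frzb at 10.6 ± 1.16 CPM per kilobase. In the spinal cord the levels of Sfrp5 and Frzb were closer together than their SDs.

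The most abundant ligands differed between tissues. The ankle had Wnt10b at 11.0 ± 1.02 and Wnt4 at 8.57 ± 0.770 CPM per kilobase, the DRG Wnt6 at 8.92 ± 0.926 and Wnt2b at 5.99 ± 0.542, and the cord Wnt7b at 5.69 ± 0.0919 and Wnt7a at 4.91 ± 0.994. Wnt7a and Wnt7b are known for signalling to blood vessels of the central nervous system, and their levels in the cord differed by less than the SD of Wnt7a. Among Frizzled receptors, Fzd1 was highest in all 3 tissues, at 25.3 ± 6.51 (ankle), 6.82 ± 0.559 (DRG) and 8.80 ± 0.818 (cord) CPM per kilobase. In the ankle Fzd7 followed at 20.0 ± 3.21 CPM per kilobase, less than 1 SD of Fzd1 away. Rspo2, an R-spondin, stood at 13.2 ± 1.03 CPM per kilobase in the DRG, against 1.39 ± 0.519 in the ankle and 1.43 ± 0.157 in the cord; these levels were not tested between tissues.

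**Figure D1:**
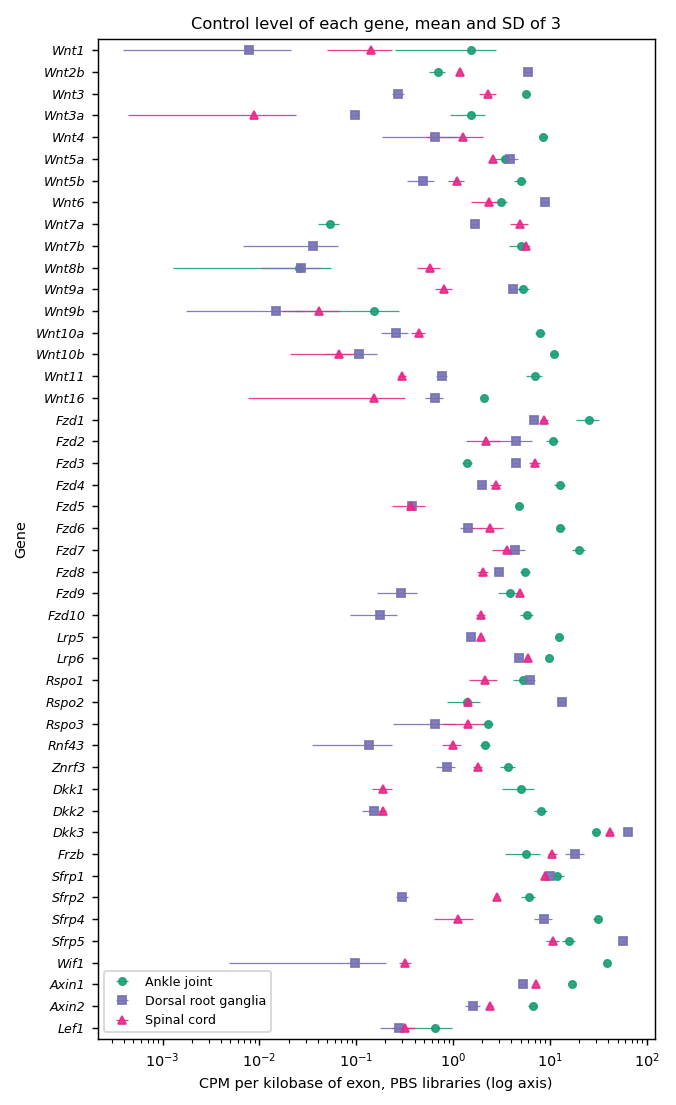
Control level of each of the 46 genes in CPM per kilobase of exon on a log axis, as mean and SD of 3 PBS libraries in the ankle joint (circles), DRG (squares) and spinal cord (triangles). A bar that would reach below 0 is shortened, a gene at 0 is not drawn, and Dkk3, Sfrp5, Wif1 and Sfrp4 lie furthest to the right.

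In the ankle, the injected site, most of these transcripts were lower 8 h after MSU. Of 44 genes tested, 26 fell and 4 rose at an edgeR adjusted p under 0.05, while 21.7% of the 17690 genes tested there fell and 21.6% rose (43.3% in either direction). The 4 that rose were Sfrp4, Sfrp1, Fzd1 and Wnt4, and without MSU library 1, 2 or 3 there were 2. The median log2 fold change over the 44 was -0.68, beside -0.02 over all genes, and the 2 groups did not overlap in 31 of the 44 (55.9% of all genes). Wnt7a and Wnt8b had too few counts in the ankle to be tested. Rspo2 and Wnt3a, both among the 26 falls, reached the count filter through the controls alone. These 2 genes could thus enter the test only by being higher in the controls. Scaling to the upper quartile, or fitting all 18 libraries together, shifted the median of all ankle genes to -0.12 and -0.13, and the median of these genes to -0.77 and -0.81. In the joint fit 3621 of all genes rose and 5665 fell, against 3823 and 3833 in the fit of the ankle alone.

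**Figure D2:**
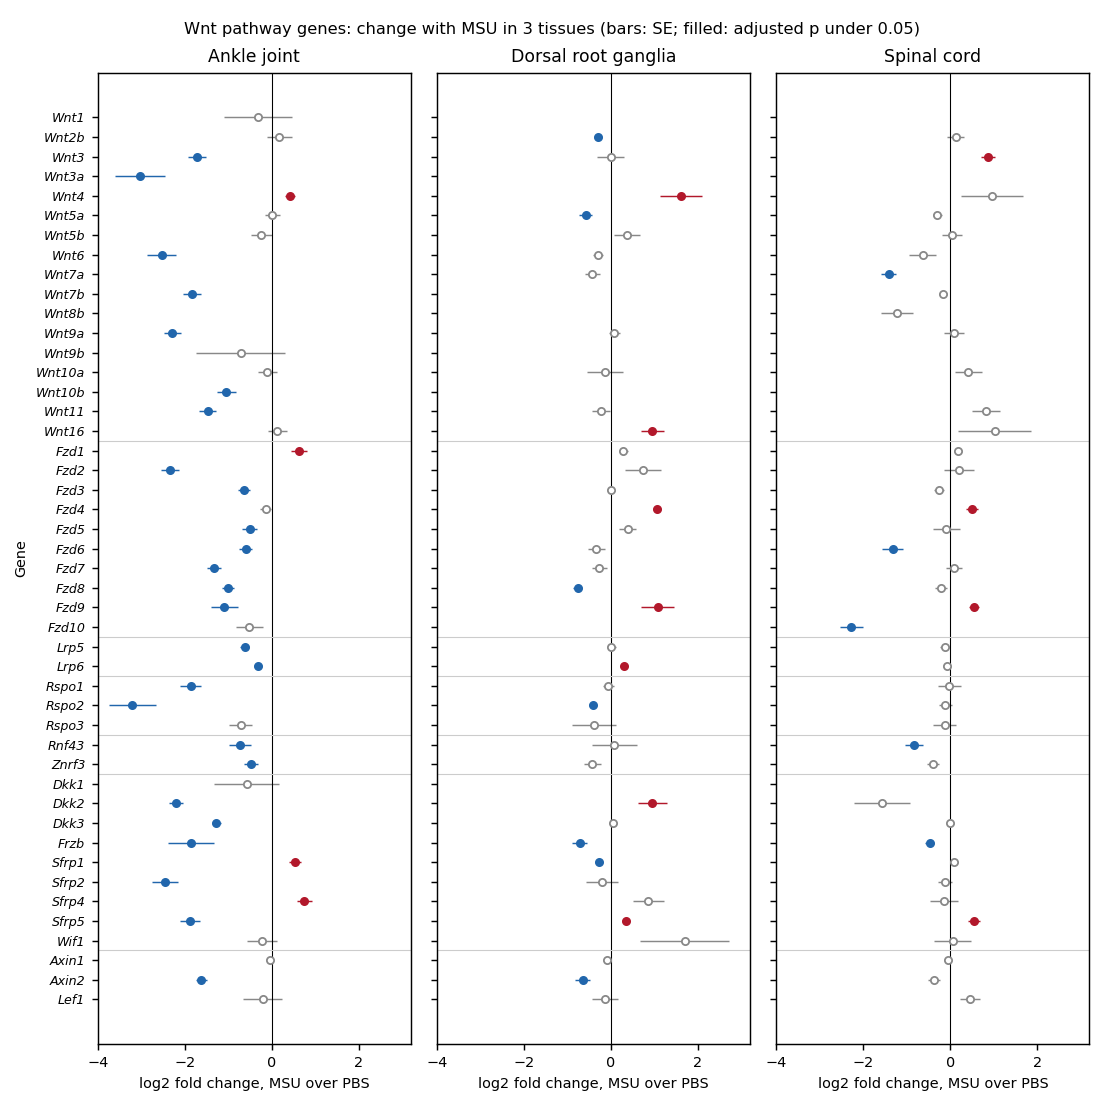
Log2 fold change of each gene with MSU over PBS in the 3 tissues, with its SE as a bar, grouped by role from ligands at the top to intracellular genes at the bottom. Filled points passed an edgeR adjusted p of 0.05 (blue lower, red higher); 26 of the 44 points in the ankle are filled blue, 7 of 38 in the DRG and 5 of 41 in the spinal cord.

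The secreted antagonists of the ankle split into 5 that fell and 2 that rose of 9 tested (values are given for libraries 1 to 3 in turn). Dkk2 (ENSMUSG00000028031), which binds LRP co-receptors, measured 25.7, 30.0 and 34.7 CPM in the controls and 6.48, 7.32 and 5.73 CPM with MSU. Every MSU library lay far below every control, a 4.61-fold fall (log2 fold change -2.20 with SE 0.17, edgeR adjusted p = 2.6e-05). Dkk3 (ENSMUSG00000030772) measured 96.5, 96.6 and 106 CPM in the controls and 39.1, 46.3 and 38.1 CPM with MSU. The groups did not overlap and the 3 controls were tightly spaced (log2 fold change -1.28 with SE 0.11, edgeR adjusted p = 3.65e-05). Sfrp2 (ENSMUSG00000027996), which binds Wnt ligands, measured 14.1, 10.6 and 14.3 CPM in the controls and 2.99, 1.28 and 2.73 CPM with MSU, the deepest fall among the antagonists at 5.48-fold (log2 fold change -2.46 with SE 0.30, edgeR adjusted p = 0.000255). Sfrp5 (ENSMUSG00000018822) measured 34.6, 25.4 and 29.8 CPM in the controls and 6.36, 7.24 and 11.1 CPM with MSU. Its highest MSU library still stood under its lowest control (log2 fold change -1.88 with SE 0.22, edgeR adjusted p = 0.000223). Frzb (ENSMUSG00000027004), an antagonist first known from cartilage, measured 26.8, 12.5 and 16.2 CPM in the controls and 8.93, 3.09 and 2.82 CPM with MSU. Control 1 and MSU library 1 were each the highest of their group, and the fall (log2 fold change -1.85 with SE 0.53, edgeR adjusted p = 0.0331) was no longer called without control 1, control 3, MSU library 2 or MSU library 3 (edgeR adjusted p = 0.0685 to 0.0978). Frzb was also not called with no count filter (adjusted p = 0.094).

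Sfrp4 (ENSMUSG00000021319), a binder of Wnt ligands known from bone, went the other way, with 118, 148 and 127 CPM in the controls and 273, 168 and 214 CPM with MSU. All MSU libraries lay above all controls, a 1.67-fold rise (log2 fold change 0.74 with SE 0.17, edgeR adjusted p = 0.00894), which the joint fit of 18 libraries did not call (adjusted p = 0.111). Sfrp1 (ENSMUSG00000031548), its relative, measured 43.8, 52.9 and 60.4 CPM in the controls and 66.8, 73.6 and 86.8 CPM with MSU. It rose with no overlap between groups (log2 fold change 0.53 with SE 0.14, edgeR adjusted p = 0.0136), and was not called without MSU library 3 (edgeR adjusted p = 0.0535). Wif1 (ENSMUSG00000020218), the most abundant gene of the set per kilobase in the ankle, measured 92.1, 97.4 and 90.8 CPM in the controls and 125, 50.8 and 62.4 CPM with MSU. MSU library 1 was the highest of the 6 and the other 2 MSU libraries were the lowest, and the change was not called (log2 fold change -0.23 with SE 0.35, edgeR adjusted p = 0.631). Dkk1 (ENSMUSG00000024868), an LRP-binding antagonist shown here after its values were seen, had the same shape, with 13.95, 7.22 and 15.7 CPM in the controls and 16.6, 4.53 and 2.63 CPM with MSU (log2 fold change -0.58 with SE 0.74, edgeR adjusted p = 0.57). Without MSU library 1 both passed the test, Wif1 with log2 fold change -0.73, edgeR adjusted p = 0.0023, and Dkk1 with log2 fold change -1.76, edgeR adjusted p = 0.0131. That library also held the highest summed level of 9 osteoblast and osteocyte markers, 2702 CPM against 1498 and 1398 CPM in the other 2 and 748 to 934 CPM in the controls. Of these markers 2 were called higher in the ankle and 7 were not called. The sums of synovial fibroblast, meningeal fibroblast and chondrocyte markers were also highest in MSU library 1, while that of neutrophil markers was highest in MSU library 3. The part of MSU library 1 in these values was not tested.

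**Figure D3:**
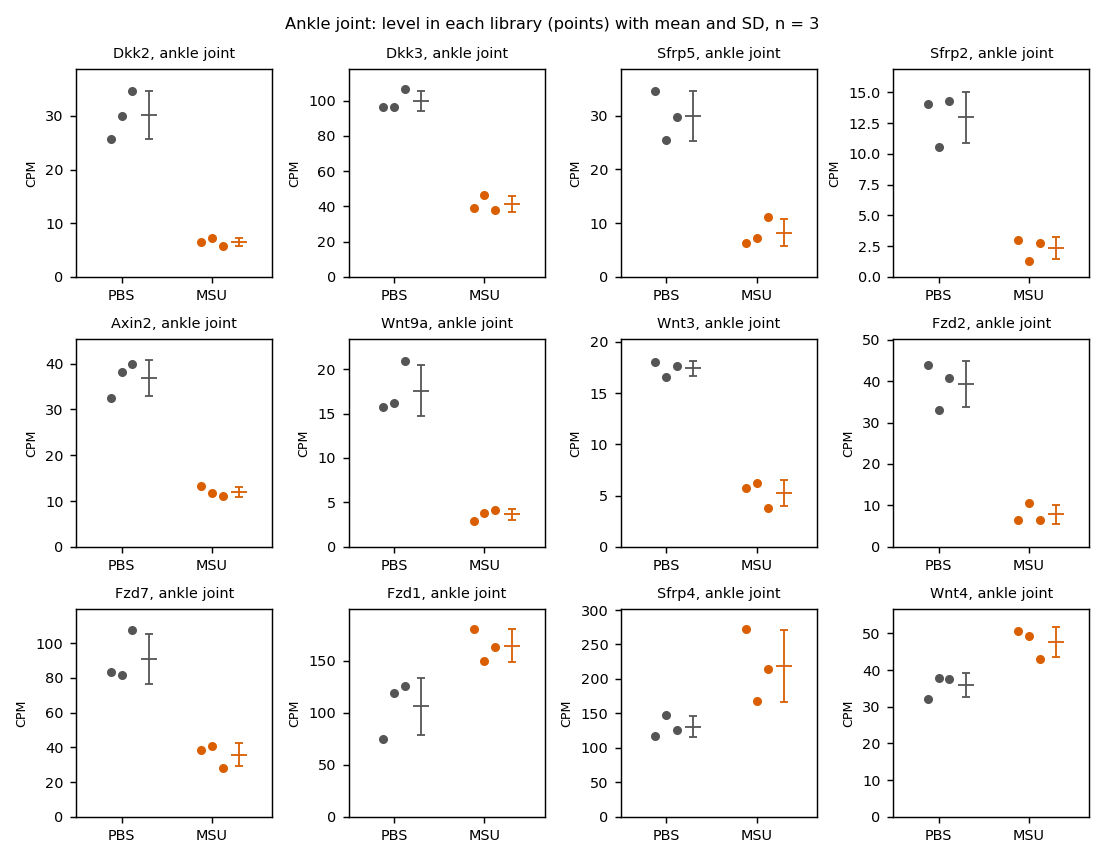
Level of 12 genes in each ankle library in CPM (points), with the mean and SD of 3 beside each group, PBS in grey and MSU in orange. The groups do not overlap in any of the 12 panels; Dkk2, Dkk3, Sfrp5, Sfrp2, Axin2, Wnt9a, Wnt3, Fzd2 and Fzd7 are lower with MSU and Fzd1, Sfrp4 and Wnt4 higher.

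Among 15 ligands tested in the ankle, 7 fell and 1 rose. Wnt3 (ENSMUSG00000000125), a ligand of the canonical branch, measured 17.997, 16.5 and 17.7 CPM in the controls and 5.77, 6.19 and 3.76 CPM with MSU. Its groups were well apart (log2 fold change -1.72 with SE 0.20, edgeR adjusted p = 0.000212). Wnt9a (ENSMUSG00000000126), known from the forming joint, measured 15.7, 16.2 and 20.9 CPM in the controls and 2.95, 3.85 and 4.14 CPM with MSU, a 4.87-fold fall (log2 fold change -2.28 with SE 0.21, edgeR adjusted p = 5.68e-05). Wnt7b (ENSMUSG00000022382), an epithelial and neural ligand, measured 17.7, 27.3 and 29.2 CPM in the controls and 5.86, 7.47 and 7.52 CPM with MSU (log2 fold change -1.83 with SE 0.22, edgeR adjusted p = 0.00022). In each of these 3 ligands the highest MSU library stood at less than the lowest control, so the groups did not overlap. Wnt11, a ligand of the non-canonical branch, measured 25.6, 25.9 and 35.1 CPM in the controls and 8.18, 10.2 and 13.0 CPM with MSU (log2 fold change -1.47 with SE 0.20, edgeR adjusted p = 0.000463). Wnt6, Wnt10b and Wnt3a also fell, with log2 fold changes of -2.54 (adjusted p = 0.000367), -1.04 (0.00549) and -3.03 (0.00298) by edgeR. Of these, Wnt3a reached the count filter through the controls alone, so it could enter the test only by being higher there.

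Wnt4 (ENSMUSG00000036856), the single ligand that rose in the ankle, measured 32.2, 37.9 and 37.7 CPM in the controls and 50.8, 49.3 and 43.0 CPM with MSU. The groups did not overlap, the rise was 1.33-fold (log2 fold change 0.41 with SE 0.11, edgeR adjusted p = 0.0165), and it was not called without control 1, MSU library 1 or MSU library 2 (edgeR adjusted p = 0.0515 to 0.0552). Wnt4 was also not called with upper quartile scaling (adjusted p = 0.0507) or in the joint fit (0.63). The other 7 ligands tested were not called, with log2 fold changes from -0.72 for Wnt9b to 0.18 for Wnt2b. Wnt5a, the best known ligand of the non-canonical branch, was among them at 0.01 (SE 0.18). Wnt5b passed the test only without MSU library 1 (log2 fold change -0.58, edgeR adjusted p = 0.0414).

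Of the 10 Frizzled receptors in the ankle, 7 fell and 1 rose. Fzd2 (ENSMUSG00000050288) measured 44.0, 33.1 and 40.6 CPM in the controls and 6.36, 10.5 and 6.58 CPM with MSU. This 5.05-fold fall was the largest among the receptors (log2 fold change -2.33 with SE 0.21, edgeR adjusted p = 6.35e-05). Fzd7 (ENSMUSG00000041075), the second most abundant receptor per kilobase, measured 83.1, 81.7 and 108 CPM in the controls and 38.4, 40.9 and 28.2 CPM with MSU (log2 fold change -1.34 with SE 0.16, edgeR adjusted p = 0.000301). Fzd8 (ENSMUSG00000036904) measured 30.5, 37.4 and 31.4 CPM in the controls and 16.0, 17.95 and 15.4 CPM with MSU (log2 fold change -1.01 with SE 0.13, edgeR adjusted p = 0.000329), again with no overlap. Fzd6 (ENSMUSG00000022297), a receptor of planar cell polarity, measured 54.2, 65.1 and 66.8 CPM in the controls and 36.9, 49.9 and 36.0 CPM with MSU (log2 fold change -0.60 with SE 0.15, edgeR adjusted p = 0.00942). Fzd9 (ENSMUSG00000049551) measured 10.2, 10.1 and 6.26 CPM in the controls and 3.41, 6.11 and 3.10 CPM with MSU (log2 fold change -1.09 with SE 0.31, edgeR adjusted p = 0.0181). For Fzd9 control 3 and MSU library 2 lay close together, and the call was lost without control 1, MSU library 1 or MSU library 3 (edgeR adjusted p = 0.0575 to 0.0626). Fzd3 and Fzd5 fell less, with log2 fold changes of -0.64 (edgeR adjusted p = 0.0075) and -0.51 (0.0422), and Fzd5 was not called without control 1, control 3, MSU library 1 or MSU library 3 (edgeR adjusted p = 0.0942 to 0.127). Fzd5 was also not called with a replicate block (adjusted p = 0.0536).

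Fzd1 (ENSMUSG00000044674), the most abundant Frizzled, rose in the ankle, with 74.9, 119 and 125 CPM in the controls and 181, 149.5 and 163 CPM with MSU. Control 1 was the lowest of the 6 libraries and the groups did not overlap (log2 fold change 0.63 with SE 0.19, edgeR adjusted p = 0.0264), and the call was lost without MSU library 1, MSU library 2 or MSU library 3 (edgeR adjusted p = 0.0554 to 0.0981). Fzd1 was also not called with a replicate block (adjusted p = 0.0566). Fzd4 at -0.14 (SE 0.13) and Fzd10 at -0.51 (SE 0.31) were not called; Fzd10 measured 15.7, 19.7 and 21.4 CPM in the controls and 8.31, 20.2 and 11.4 CPM with MSU, so that MSU library 2 lay among the controls, and without it the gene was called (log2 fold change -0.95, edgeR adjusted p = 0.0106). Both LRP co-receptors fell. Lrp5 changed by -0.62 on the log2 scale (SE 0.10, edgeR adjusted p = 0.00118). Lrp6 (ENSMUSG00000030201) measured 132, 136 and 137 CPM in the controls and 100.2, 108 and 119 CPM with MSU, a small fall of 1.24-fold (log2 fold change -0.31 with SE 0.09, edgeR adjusted p = 0.0244), not called without control 2, control 3, MSU library 1 or MSU library 2 (edgeR adjusted p = 0.0632 to 0.077).

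Of the 3 R-spondins, which keep Frizzled receptors at the surface, 2 fell in the ankle, and both ligases fell. Rspo1 changed by -1.87 on the log2 scale (SE 0.24, edgeR adjusted p = 0.000301). Rspo2 (ENSMUSG00000051920) measured 10.2, 5.46 and 5.71 CPM in the controls and 1.37, 0.226 and 0.470 CPM with MSU, where all controls stood above all MSU libraries (log2 fold change -3.21 with SE 0.54, edgeR adjusted p = 0.00209). Rspo2 reached the count filter through the controls alone, so it could enter this test only by being higher there. Rspo3 had no overlap between groups but was not called (log2 fold change -0.71, SE 0.27, edgeR adjusted p = 0.0564), and was called without MSU library 1 (log2 fold change -1.02, edgeR adjusted p = 0.0161). Rnf43 (ENSMUSG00000034177), a ligase that removes Frizzled receptors, measured 12.6, 13.7 and 16.0 CPM in the controls and 8.48, 11.4 and 5.45 CPM with MSU (log2 fold change -0.73 with SE 0.25, edgeR adjusted p = 0.0394), and was not called without control 1, control 2, control 3, MSU library 1 or MSU library 3 (edgeR adjusted p = 0.0561 to 0.121). Rnf43 was also not called with a replicate block (adjusted p = 0.0526). Znrf3, the other ligase, changed by -0.48 (SE 0.15, edgeR adjusted p = 0.0316) and was not called without control 2, control 3, MSU library 1, MSU library 2 or MSU library 3 (edgeR adjusted p = 0.0552 to 0.117).

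Axin2 (ENSMUSG00000000142), whose promoter is printed above and whose transcript is the usual read-out of beta-catenin activity, measured 32.4, 38.3 and 39.9 CPM in the controls and 13.2, 11.7 and 11.0 CPM with MSU in the ankle. Every MSU library lay at less than the lowest control, a 3.07-fold fall (log2 fold change -1.62 with SE 0.13, edgeR adjusted p = 3.8e-05) that was called under each alternative. Axin1, its relative in the same complex, had a log2 fold change of -0.04 (SE 0.08), and Lef1, a beta-catenin partner, -0.21 (SE 0.45), and neither was called. Beta-catenin activity itself was not measured. Exons of 9 of the 46 genes overlap a gene on the opposite strand in GENCODE M21 (Axin2, Fzd5, Fzd6, Lef1, Rspo3, Sfrp2, Wnt11, Wnt5a and Wnt7b), and as the strand setting is not given in the sources used here, reads of such pairs may not be told apart. The partners held a mean of at most 19.8 counts in any tissue.

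Marker lists of other cell types moved in the same ankle libraries. The summed level of 10 keratinocyte markers was 16064 to 17846 CPM in the controls and 6989 to 9835 CPM with MSU, and 9 of the 10 fell. Of 9 Schwann cell markers 6 fell (687 to 818 against 430.4 to 524 CPM), and of 9 adipocyte markers 5 fell (1122 to 1487 against 855 to 1051 CPM). Of 10 skeletal muscle markers 4 fell (2846 to 3385 against 1952 to 2775 CPM). Of 8 endothelial markers 2 rose and 3 fell (478 to 609 against 550 to 598 CPM). All 12 neutrophil markers rose, and their sum was 422 to 1164 CPM in the controls and 3816 to 5237 CPM with MSU. Of 12 monocyte and macrophage markers 6 rose (1300.3 to 1519 against 1569 to 1959 CPM). Of 12 synovial fibroblast markers 3 rose and 5 fell, while their sum, led by collagen genes, was 21829 to 24747 CPM in the controls and 25321 to 38202 CPM with MSU. No marker in these lists was at 0 in all ankle libraries. In bulk RNA scaled to library size, fewer cells of a type, less RNA per cell and more RNA from other cells cannot be told apart. The part of these lists in the falls and rises of Wnt pathway genes was not tested.

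**Figure D4:**
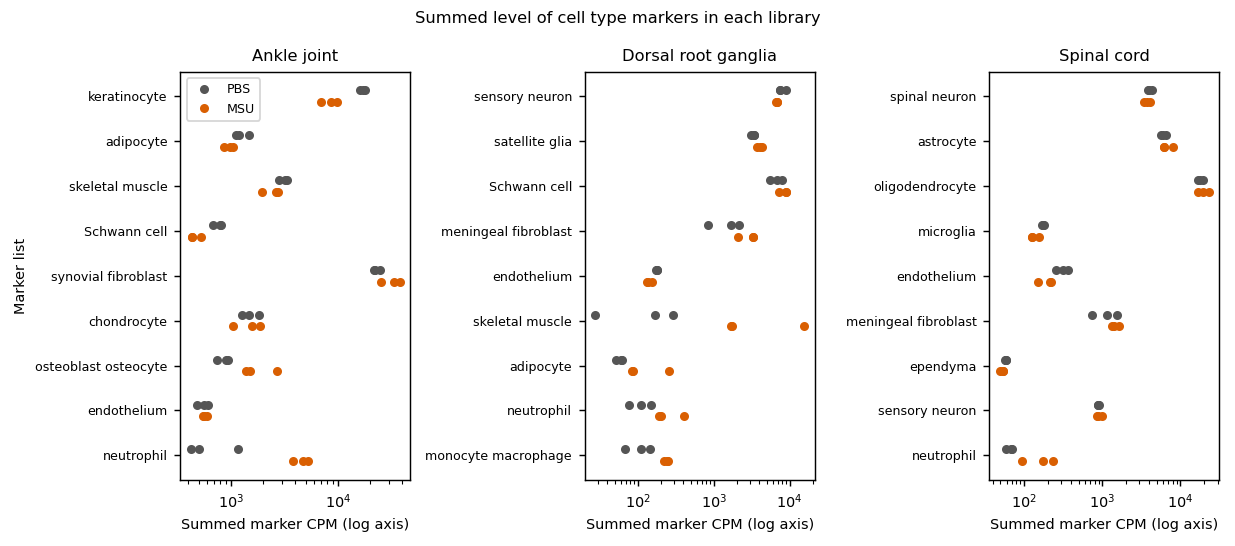
Summed CPM of each cell type marker list in each library on a log axis, PBS in grey and MSU in orange, for the 3 tissues. In the ankle the keratinocyte sums of the MSU libraries lie left of the controls and the neutrophil sums right of them; in the DRG the skeletal muscle sums of the MSU libraries lie far right of the controls.

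In the DRG, away from the injection, 14 of these genes were called. Of 38 tested, 7 rose and 7 fell (36.8%), a share near that of all 17008 genes tested there. Of those 16.7% rose and 18.7% fell (35.4% in all). The median log2 fold change was -0.03, beside 0.02 over all genes, and the groups did not overlap in 14 of 38 (50.3% of all genes). Fzd4 and Fzd8 were called in every alternative fit, and of the pair Fzd4 alone had a log2 fold change of at least 1 in size. Dkk2, Fzd9 and Rnf43 passed the count filter through the MSU libraries alone and Sfrp2 through the controls alone. Of these, Dkk2 and Fzd9 are among the 7 rises, and they could enter the test only by being higher with MSU. The 8 genes not tested were Dkk1, Fzd10, Wnt1, Wnt10b, Wnt3a, Wnt7b, Wnt8b and Wnt9b.

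The DRG libraries differed in markers of other tissues. The summed level of 10 skeletal muscle markers was 289, 168 and 27.6 CPM in the controls and 15668, 1741 and 1693 CPM with MSU, and 1 of the 10 was called. None of the 10 was at 0 in all libraries. Control 3 had the lowest sum of 11 meningeal fibroblast markers, 835 CPM, against 1680.2 and 2165 CPM in the other controls and 2069.7 to 3330.0 CPM with MSU. Of 12 monocyte and macrophage markers 8 rose (68.9 to 146 against 223 to 254 CPM), and of 12 neutrophil markers 7 rose (78.0 to 149 against 192 to 405 CPM). The part of these lists in the results was not tested. Without MSU library 1 the counts of genes that rose and fell were 8 and 8, and without control 3 they were 6 and 9. Other libraries moved the counts more, to 3 and 4 without control 1, 4 and 3 without control 2, 2 and 3 without MSU library 2, and 3 and 4 without MSU library 3. The 14 sensory neuron markers summed to 7404 to 9029 CPM in the controls and 6548 to 6816 CPM with MSU, and 8 of the 14 fell.

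Of 9 Frizzled receptors tested in the DRG, 2 rose and 1 fell. Fzd4 (ENSMUSG00000049791), a receptor for Wnt ligands and norrin that is best known from blood vessels, measured 13.3, 14.3 and 12.1 CPM in the controls and 30.1, 26.7 and 26.1 CPM with MSU. Every MSU library stood well above the highest control, a 2.08-fold rise (log2 fold change 1.06 with SE 0.10, edgeR adjusted p = 9.54e-05). Of 8 endothelial markers in the same libraries 1 rose and 4 fell, with a sum of 175 to 180.4 CPM in the controls and 134 to 155 CPM with MSU, none at 0. Their part in the rise of Fzd4 was not tested. Fzd8 (ENSMUSG00000036904) measured 18.5, 17.9 and 16.8 CPM in the controls and 10.6, 10.8 and 9.96 CPM with MSU, and both groups were tight and apart (log2 fold change -0.76 with SE 0.10, edgeR adjusted p = 0.000494). Fzd9 measured 0.558, 0.443 and 1.01 CPM in the controls and 1.76, 0.992 and 1.40 CPM with MSU, where MSU library 2 lay just under control 3 (log2 fold change 1.08 with SE 0.38, edgeR adjusted p = 0.048); it was not called without control 1, control 2, MSU library 1, MSU library 2 or MSU library 3 (edgeR adjusted p = 0.0516 to 0.158). Fzd9 was also not called in DESeq2 (adjusted p = 0.0743) or with a replicate block (0.0612), and it reached the count filter through the MSU libraries alone. Lrp6, the co-receptor, measured 68.0, 66.2 and 62.7 CPM in the controls and 77.5, 80.9 and 82.8 CPM with MSU, a rise of 1.22-fold with no overlap (log2 fold change 0.29 with SE 0.07, edgeR adjusted p = 0.00837). Rspo2, at its highest level in this tissue, measured 66.0, 63.4 and 73.6 CPM in the controls and 53.8, 47.8 and 49.9 CPM with MSU, and every MSU library lay under every control (log2 fold change -0.42 with SE 0.08, edgeR adjusted p = 0.00321). The rise of Lrp6 and the fall of Rspo2 were called whichever library was left out, but not in the joint fit of 18 libraries (adjusted p = 0.0603 and 0.122).

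Among 8 secreted antagonists tested in the DRG, 2 rose and 2 fell. Frzb measured 72.7, 58.2 and 46.4 CPM in the controls and 31.4, 37.9 and 38.1 CPM with MSU, a fall with no overlap although the controls were spread (log2 fold change -0.72 with SE 0.16, edgeR adjusted p = 0.0105), and not called in the joint fit (adjusted p = 0.0896). Sfrp5, abundant in ganglia, measured 108, 106 and 114 CPM in the controls and 124, 151 and 138 CPM with MSU (log2 fold change 0.34 with SE 0.08, edgeR adjusted p = 0.0117); the rise was not called without control 2 or MSU library 2 (edgeR adjusted p = 0.0555 to 0.0646). Sfrp5 was also not called in the joint fit (adjusted p = 0.266). Sfrp1 measured 43.0, 45.5 and 42.2 CPM in the controls and 38.7, 33.4 and 35.1 CPM with MSU, a small fall (log2 fold change -0.29 with SE 0.08, edgeR adjusted p = 0.0219) not called without control 1, control 2, MSU library 2 or MSU library 3 (edgeR adjusted p = 0.0587 to 0.098). Dkk2 was scarce, with 0.447, 0.532 and 0.710 CPM in the controls and 0.881, 1.23 and 1.05 CPM with MSU. It reached the count filter through the MSU libraries alone. Its groups did not overlap (log2 fold change 0.95 with SE 0.33, edgeR adjusted p = 0.0483), yet the call was lost without control 1, control 2, MSU library 2 or MSU library 3 (edgeR adjusted p = 0.123 to 0.174). Dkk2 was also not called with no count filter (adjusted p = 0.087), with a mean count filter (0.0502), in DESeq2 (0.135), with a replicate block (0.0899) or in the joint fit (0.0902). Dkk3, the most abundant, had a log2 fold change of 0.04 (SE 0.07) and was not called. Sfrp4 and Wif1 were called higher without MSU library 1, with log2 fold change 1.11, edgeR adjusted p = 0.00421, and log2 fold change 2.17, edgeR adjusted p = 0.0214.

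Of 11 ligands tested in the DRG, 2 rose and 2 fell. Wnt5a (ENSMUSG00000021994) measured 34.8, 33.6 and 22.9 CPM in the controls and 22.6, 19.0 and 19.7 CPM with MSU, where control 3 and MSU library 1 nearly touched (log2 fold change -0.58 with SE 0.15, edgeR adjusted p = 0.0179), and it was not called without control 1, control 2, MSU library 2 or MSU library 3 (edgeR adjusted p = 0.062 to 0.0775). Wnt2b (ENSMUSG00000027840), a canonical ligand, measured 22.5, 26.3 and 26.6 CPM in the controls and 20.3, 20.98 and 19.8 CPM with MSU (log2 fold change -0.30 with SE 0.09, edgeR adjusted p = 0.0295), and was not called without control 2, control 3, MSU library 2 or MSU library 3 (edgeR adjusted p = 0.0659 to 0.104). Wnt2b was also not called with a replicate block (adjusted p = 0.0561) or in the joint fit (0.0874). Wnt4 measured 2.04, 4.87 and 1.18 CPM in the controls and 6.57, 8.69 and 9.37 CPM with MSU, with all MSU libraries above all controls (log2 fold change 1.60 with SE 0.49, edgeR adjusted p = 0.0472), and was not called without control 1, MSU library 1, MSU library 2 or MSU library 3 (edgeR adjusted p = 0.0651 to 0.15). Wnt4 was also not called in the joint fit (adjusted p = 0.0516). Wnt16 rose by a log2 fold change of 0.95 (SE 0.27, edgeR adjusted p = 0.0208) with overlapping groups, and was not called without control 1, control 3, MSU library 2 or MSU library 3 (edgeR adjusted p = 0.0579 to 0.1). Wnt16 was also not called in the joint fit (adjusted p = 0.206). Wnt6, the most abundant ligand there, was not called (log2 fold change -0.31 with SE 0.12, edgeR adjusted p = 0.0583), and was called without control 3 (log2 fold change -0.39, edgeR adjusted p = 0.0267). Axin2, the target gene, measured 9.35, 10.2 and 7.15 CPM in the controls and 5.35, 5.29 and 6.33 CPM with MSU in the DRG. It fell with no overlap (log2 fold change -0.65 with SE 0.17, edgeR adjusted p = 0.0131) and was not called without control 1, control 2 or MSU library 2 (edgeR adjusted p = 0.0564 to 0.0608). Other genes were called when 1 library was left out, Fzd1 and Wnt7a without MSU library 1 (edgeR adjusted p = 0.00967 and 0.0471) and Fzd7 and Znrf3 without control 3 (0.0064 and 0.0255).

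**Figure D5:**
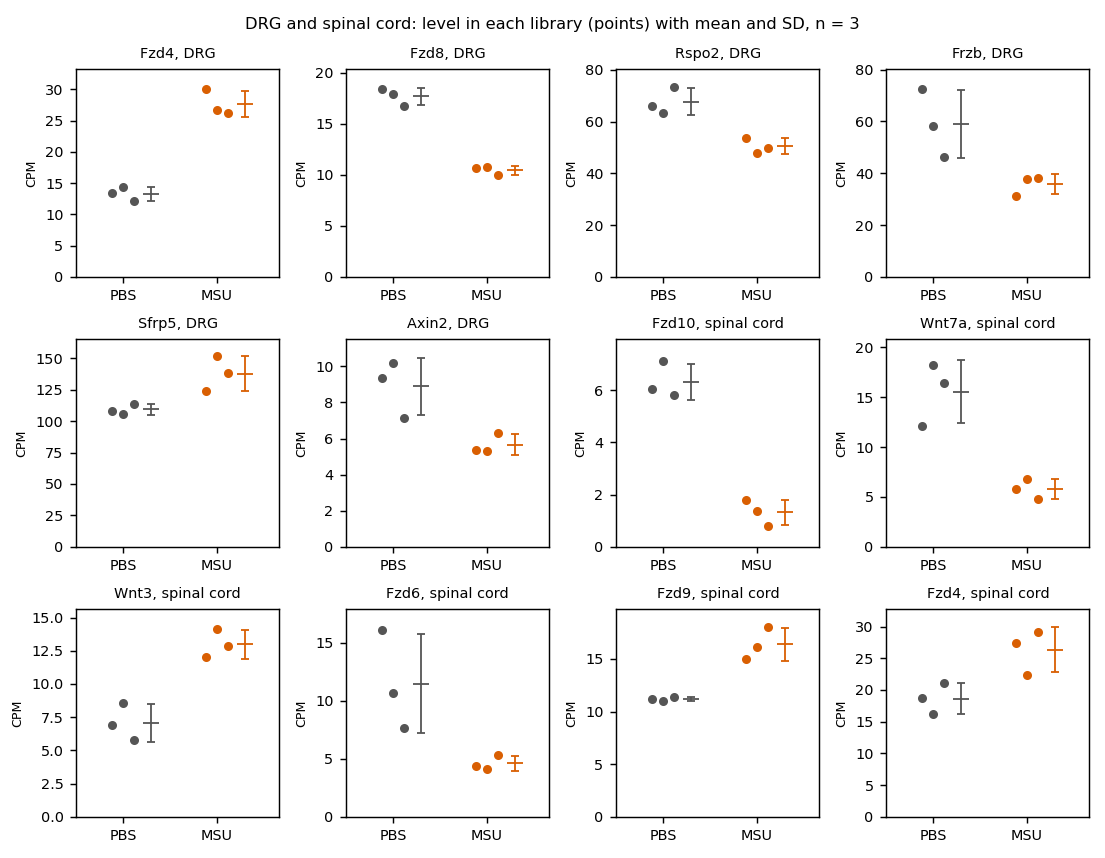
Level of 6 genes in each DRG library and 6 in each spinal cord library in CPM (points), with the mean and SD of 3 beside each group, PBS in grey and MSU in orange. The groups do not overlap in any of the 12 panels; DRG Fzd4 averages 13.2 CPM in the controls and 27.6 CPM with MSU, and spinal cord Fzd10 6.32 and 1.31 CPM.

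In the spinal cord, 4 of 41 tested genes rose and 5 fell (22.0%), against 5.6% that rose and 4.07% that fell of 17507 genes tested there (9.66% in all). The median log2 fold change was -0.08, beside -0.01 over all genes, and the groups did not overlap in 19 of 41 (27.7% of all genes). The joint fit and the fit without MSU library 1 gave a larger share of rises among all genes, 853 rises to 365 falls and 843 to 359, against 980 to 712 here. Fzd10, Wnt7a, Wnt3 and Fzd6 were called in every alternative fit, and of them Fzd10, Wnt7a and Fzd6, but not Wnt3, had a log2 fold change of at least 1 in size. The rises numbered 2 without control 1, control 2 or MSU library 3, and the falls numbered 3 without control 2, control 3 or MSU library 1. Dkk2, Wif1 and Wnt8b passed the count filter through the controls alone and Wnt16 through the MSU libraries alone, and Dkk1, Wnt1, Wnt10b, Wnt3a and Wnt9b were not tested.

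Of 10 Frizzled receptors tested in the cord, 2 rose and 2 fell, where 22.0% of the set and 9.66% of all genes were called. Fzd10 (ENSMUSG00000081683), a receptor at low level in the cord, measured 6.05, 7.10 and 5.82 CPM in the controls and 1.78, 1.37 and 0.797 CPM with MSU. The highest MSU library stood far under the lowest control, a 4.83-fold fall (log2 fold change -2.27 with SE 0.27, edgeR adjusted p = 0.000141). Fzd6 measured 16.1, 10.7 and 7.66 CPM in the controls and 4.34, 4.11 and 5.37 CPM with MSU, with the controls spread but above every MSU library (log2 fold change -1.33 with SE 0.25, edgeR adjusted p = 0.00583). Fzd9 measured 11.2, 11.0 and 11.4 CPM in the controls and 15.01, 16.1 and 18.04 CPM with MSU, tight groups with no overlap (log2 fold change 0.55 with SE 0.12, edgeR adjusted p = 0.0104), not called in the joint fit (adjusted p = 0.24). Fzd4 measured 18.7, 16.2 and 21.1 CPM in the controls and 27.4, 22.4 and 29.2 CPM with MSU (log2 fold change 0.50 with SE 0.13, edgeR adjusted p = 0.0249), and was not called without control 1, control 2, MSU library 1 or MSU library 3 (edgeR adjusted p = 0.069 to 0.12). Rnf43, the ligase, measured 5.08, 8.05 and 6.33 CPM in the controls and 3.60, 3.76 and 3.48 CPM with MSU (log2 fold change -0.83 with SE 0.20, edgeR adjusted p = 0.0202), and was not called without control 2, control 3, MSU library 1 or MSU library 3 (edgeR adjusted p = 0.0502 to 0.12). Rnf43 was also not called in the joint fit (adjusted p = 0.204).

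Among 13 ligands tested in the cord, Wnt7a fell and Wnt3 rose. Wnt7a (ENSMUSG00000030093) measured 12.1, 18.2 and 16.4 CPM in the controls and 5.83, 6.80 and 4.78 CPM with MSU, a 2.68-fold fall in which the highest MSU library lay well under the lowest control (log2 fold change -1.42 with SE 0.18, edgeR adjusted p = 0.000241). Wnt7b, with which it shares its vascular receptors, measured 28.3, 27.9 and 27.4 CPM in the controls and 26.5, 23.8 and 24.3 CPM with MSU and was not called (log2 fold change -0.17 with SE 0.09, edgeR adjusted p = 0.312). Wnt3 measured 6.92, 8.57 and 5.74 CPM in the controls and 11.996, 14.2 and 12.8 CPM with MSU, a 1.84-fold rise with no overlap (log2 fold change 0.88 with SE 0.16, edgeR adjusted p = 0.00313). Of 8 antagonists tested, Sfrp5 rose and Frzb fell. Sfrp5 measured 17.1, 20.8 and 23.5 CPM in the controls and 27.3, 26.9 and 35.1 CPM with MSU (log2 fold change 0.55 with SE 0.14, edgeR adjusted p = 0.0232), and was not called without control 1, control 2 or MSU library 3 (edgeR adjusted p = 0.0688 to 0.0957). Sfrp5 was also not called in the joint fit (adjusted p = 0.0518). Frzb measured 30.2, 35.4 and 37.6 CPM in the controls and 23.3, 25.1 and 25.6 CPM with MSU (log2 fold change -0.48 with SE 0.10, edgeR adjusted p = 0.00941), and was not called without control 2, control 3 or MSU library 1 (edgeR adjusted p = 0.0514 to 0.0611). Frzb was also not called in the joint fit (adjusted p = 0.563). Fzd3 and Wnt8b were called lower without MSU library 3 (edgeR adjusted p = 0.0372 and 0.0407). Axin2 had a log2 fold change of -0.38 (SE 0.14, edgeR adjusted p = 0.107) with no overlap between groups and was not called. In the same libraries 4 of 8 endothelial markers fell, with a sum of 259 to 363 CPM in the controls and 152 to 218 CPM with MSU, none at 0, and their part in these values was not tested. Of 11 neutrophil markers tested 6 rose (59.5 to 70.6 against 93.5 to 235 CPM). Of 12 monocyte and macrophage markers 7 rose (174 to 218 against 259.6 to 387 CPM), and of 7 microglia markers 3 fell (172 to 181 against 126 to 154 CPM). The part of these lists was not tested either. The 9 spinal neuron markers summed to 3898 to 4285 CPM in the controls and 3431 to 4075 CPM with MSU.

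Over the 3 tissues, 10 of the 46 genes were called in none, 22 in 1, 11 in 2 and 3 in all 3. The last were Frzb, Fzd9 and Sfrp5. Of all genes tested, 43.3% (ankle), 35.4% (DRG) and 9.66% (cord) were called. How often all genes were called in several tissues was not counted, so these numbers have no share to stand beside. Frzb was called lower in the fit of each tissue alone. The joint fit, which the tests of differences use, called it in neither the DRG (adjusted p = 0.0896) nor the cord (0.563). A test of the difference itself gave -1.45 (SE 0.50, edgeR adjusted p = 0.0478) on the log2 scale for the ankle minus the cord, with adjusted p up to 0.148 over the alternatives. That call was lost without any library of the ankle or cord but ankle control 2 and ankle MSU library 1. The differences between the ankle and the DRG, -1.10 (SE 0.50, edgeR adjusted p = 0.111), and between the DRG and the cord, -0.35 (SE 0.47, edgeR adjusted p = 0.724), were not called. The tests of differences used all 18 libraries and 20757 genes, with a value given as the first tissue minus the second. They take libraries of different tissues as independent, although numbers in the sample descriptions recur across tissues and the same mice may have given more than 1 tissue. Sfrp5 and Fzd9 were called lower in the ankle and higher in both neural tissues. Fzd9 entered the DRG test through the MSU libraries alone, and the joint fit called the rise of Sfrp5 in neither neural tissue. For Sfrp5 the ankle response differed from that of the DRG by -2.26 (SE 0.24, edgeR adjusted p = 2e-06) and from that of the cord by -2.58 (SE 0.24, edgeR adjusted p = 9.23e-07). For Fzd9 the differences were -2.20 (SE 0.44, edgeR adjusted p = 0.000807) and -1.77 (SE 0.37, edgeR adjusted p = 0.00137).

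In all, responses differed between ankle and DRG in 22 of the 46 genes (32.4% of all genes), between ankle and cord in 21 (26.7%) and between DRG and cord in 5 (13.6%). The ankle response was the more negative in 21 of the 22 and 20 of the 21. Among all genes with a called difference, it was the more negative in 3763 of 6735 and 3643 of 5542. In the set followed here the exceptions were Sfrp1 against the DRG, 0.80 (SE 0.15, edgeR adjusted p = 0.00039), and Fzd10 against the cord, 1.63 (SE 0.45, edgeR adjusted p = 0.0114). The largest negative differences from the DRG were those of Dkk2, -3.18 (SE 0.46, edgeR adjusted p = 4.26e-05), Fzd2, -3.10 (SE 0.52, edgeR adjusted p = 0.000416), Rspo2, -2.73 (SE 0.43, edgeR adjusted p = 0.00016), and Wnt7b, -2.47 (SE 0.54, edgeR adjusted p = 0.00168). Fzd2 in the DRG measured 19.3, 21.8 and 7.69 CPM in the controls and 21.7, 31.7 and 28.4 CPM with MSU, with control 3 far under the other libraries. Wnt7b held at most 0.454 CPM in a DRG library and was not tested in that tissue alone. From the cord, Rspo2 differed by -3.15 (SE 0.45, edgeR adjusted p = 7.15e-05), Wnt3 by -2.72 (SE 0.27, edgeR adjusted p = 9.6e-07) and Fzd2 by -2.66 (SE 0.54, edgeR adjusted p = 0.00192). Rspo2 in the cord measured 6.92, 6.81 and 8.25 CPM in the controls and 6.66, 6.55 and 7.05 CPM with MSU, and Fzd2 there 4.98, 8.13 and 11.2 CPM in the controls and 7.80, 13.0 and 6.84 CPM with MSU; in both genes the groups overlapped.

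Wnt3 showed opposite calls in ankle and cord, and in the DRG it measured 0.865, 0.709 and 0.946 CPM in the controls and 0.948, 0.850 and 0.734 CPM with MSU, with no call. Lrp6 fell in the ankle and rose in the DRG, a difference of -0.62 (SE 0.11, edgeR adjusted p = 0.000347), and Sfrp1 did the reverse. Axin2 and Rspo2 fell in both ankle and DRG and further in the ankle, with a difference of -0.98 (SE 0.21, edgeR adjusted p = 0.0016) for Axin2. Fzd8 also fell in both, and its difference between them was not called, -0.27 (SE 0.17, edgeR adjusted p = 0.257). Fzd4 rose in the DRG and the cord, without a called difference between those tissues, 0.45 (SE 0.18, edgeR adjusted p = 0.111). Wnt4 rose in the ankle and the DRG, with a difference of -1.21 (SE 0.71, edgeR adjusted p = 0.224). Fzd6 and Rnf43 fell in the ankle and the cord, with differences of 0.60 (SE 0.31, edgeR adjusted p = 0.166) and -0.02 (SE 0.48, edgeR adjusted p = 1).

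Between DRG and cord, the called differences were those of Dkk2, 2.43 (SE 0.61, edgeR adjusted p = 0.0118), Wnt11, -1.16 (SE 0.35, edgeR adjusted p = 0.0319), Wnt3, -0.99 (SE 0.32, edgeR adjusted p = 0.0449), Fzd8, -0.64 (SE 0.17, edgeR adjusted p = 0.0184), and Sfrp1, -0.47 (SE 0.15, edgeR adjusted p = 0.0381). In the cord Dkk2 measured 0.726, 0.659 and 0.737 CPM in the controls and 0, 0.304 and 0.378 CPM with MSU, all at low counts. Wnt11 measured 2.71, 3.28 and 3.55 CPM in the controls and 3.05, 2.69 and 2.41 CPM with MSU in the DRG and 1.26, 1.32 and 1.10 CPM in the controls and 1.48, 2.89 and 2.18 CPM with MSU in the cord, and was called in neither tissue alone. Fzd8 in the cord measured 10.9, 11.9 and 13.99 CPM in the controls and 10.1, 9.95 and 11.3 CPM with MSU, with overlap, and Sfrp1 there 39.8, 38.0 and 37.8 CPM in the controls and 42.6, 39.3 and 40.3 CPM with MSU. The call of Fzd8 was lost without DRG MSU library 3, cord control 1 or cord MSU library 3. That of Wnt11 was lost without any of the libraries of both tissues but DRG control 1, DRG MSU library 1 and cord MSU library 1, that of Wnt3 but DRG control 2, DRG MSU library 1 and cord control 2, and that of Sfrp1 but DRG MSU library 1. Dkk2 was called in each setting, and the others had adjusted p-values over the alternatives up to 0.0975 for Wnt11, 0.189 for Wnt3, 0.0631 for Fzd8 and 0.143 for Sfrp1 in edgeR or DESeq2.

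Other genes of the pathway were read from 4 lists, of which 1 symbol of the secretion list was not matched. Their counts stand beside the shares of all genes tested, which were 21.6% higher and 21.7% lower for the ankle. For the DRG the shares were 16.7% and 18.7%, and for the cord 5.6% and 4.07%. Of 8 genes of Wnt secretion and removal tested in the ankle, 2 rose and 4 fell (median log2 fold change -0.29). Wls, the carrier that brings Wnt proteins to the cell surface, fell by 0.90 on the log2 scale (edgeR adjusted p = 0.000431), as did the sulfatase Sulf2, -0.89 (edgeR adjusted p = 0.000181), and the Wnt-cleaving protease Trabd2b, -0.98 (edgeR adjusted p = 0.000248). Notum, the enzyme that strips the lipid from Wnt proteins, rose, 1.43 (edgeR adjusted p = 0.00279). In the DRG 1 of 7 rose, Sulf1 at 0.76 (edgeR adjusted p = 0.000417), and in the cord 1 of 8 fell, Wls at -0.52 (edgeR adjusted p = 0.019) (medians 0.28 and -0.01) beside 35.4% and 9.66% of all genes called in either direction. Among 27 co-receptors and genes of planar cell polarity, 2 rose and 17 fell in the ankle (median -0.60). They included the Wnt7 co-receptor Reck, -1.69 (edgeR adjusted p = 3.1e-05), the R-spondin receptor Lgr6, -1.33 (edgeR adjusted p = 7.04e-05), and the polarity gene Vangl2, -1.63 (edgeR adjusted p = 0.000422), while the polarity cadherin Celsr3 rose, 2.18 (edgeR adjusted p = 4.3e-05). In the DRG 3 of 26 rose and 10 fell (median -0.24), with Celsr2 at -0.90 (edgeR adjusted p = 9.69e-05), Celsr1 at -1.07 (edgeR adjusted p = 0.00038), Lgr5 at -0.99 (edgeR adjusted p = 0.000352) and Lrp4 higher at 0.93 (edgeR adjusted p = 0.00019). In the cord 1 of 26 rose, the formin Daam2 at 0.81 (edgeR adjusted p = 3.43e-05), and 4 fell (median -0.13), among them Lgr6 at -1.12 (edgeR adjusted p = 0.000215) and the partners Adgra2 at -0.62 (edgeR adjusted p = 0.0029) and Reck at -0.76 (edgeR adjusted p = 0.0105).

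Of 31 genes of the beta-catenin core, 3 rose and 10 fell in the ankle (median -0.08), 2 rose and 14 fell in the DRG (-0.25), and 1 rose and 2 fell in the cord (-0.02). Taken in either direction, the 13 called in the ankle and the 3 in the cord were shares near those of all genes there, 43.3% and 9.66%. The 16 called in the DRG stand beside 35.4% of all genes. By direction, the 3 rises and 10 falls in the ankle stand beside 21.6% and 21.7% of all genes. The 2 rises and 14 falls in the DRG stand beside 16.7% and 18.7%. In the ankle the falls included the coactivator Bcl9l, -1.08 (edgeR adjusted p = 0.000201), Ctnnbip1, an inhibitor of beta-catenin, -1.38 (edgeR adjusted p = 0.000346), the kinase Csnk1e, -0.66 (edgeR adjusted p = 0.000745), and the repressor Tcf7l1, -0.67 (edgeR adjusted p = 0.00223). In the DRG they included Apc2 of the destruction complex, -0.96 (edgeR adjusted p = 0.000149), Dvl3, -0.54 (edgeR adjusted p = 0.000545), Ctnnbip1, -0.62 (edgeR adjusted p = 0.00118), and Fbxw11, -0.45 (edgeR adjusted p = 0.00142). In the cord the corepressor Tle3 rose, 0.92 (edgeR adjusted p = 1.07e-05), and Tcf7, -1.22 (edgeR adjusted p = 0.0034), and Bcl9l, -0.44 (edgeR adjusted p = 0.00431), fell. The falls held both activators and inhibitors of the pathway.

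Of 22 genes known as Wnt targets in some tissue, 6 rose and 10 fell in the ankle (median log2 fold change -0.52), 3 of 19 rose and 10 fell in the DRG (-0.27), and 3 of 20 rose and 5 fell in the cord (-0.13), where 43.3%, 35.4% and 9.66% of all genes were called in either direction. Slc2a1, the glucose transporter, rose in all 3 tissues, with log2 fold changes of 1.49 (edgeR adjusted p = 3.17e-05), 0.78 (edgeR adjusted p = 5.64e-05) and 0.99 (edgeR adjusted p = 3.17e-05). In the ankle Myc, 1.61 (edgeR adjusted p = 0.000108), and Cd44, 0.99 (edgeR adjusted p = 0.000181), rose, and the endothelial junction gene Cldn5 fell, -1.09 (edgeR adjusted p = 0.000141). In the DRG Cldn5, -1.67 (edgeR adjusted p = 5.68e-05), Lgr5, and Sox17, -1.05 (edgeR adjusted p = 0.000524), fell. In the cord the lipid transporter Mfsd2a rose, 1.49 (edgeR adjusted p = 4.59e-06), and Tnfrsf19 fell, -0.84 (edgeR adjusted p = 2.17e-05). Nkd1, a feedback inhibitor named here after its values were seen, fell in all 3 tissues, with log2 fold changes of -2.26 (edgeR adjusted p = 0.000516), -0.89 (edgeR adjusted p = 0.00333) and -0.61 (edgeR adjusted p = 0.00558). Notum, of the same list, rose in the ankle, as given above. The summed level of the 22 genes in the ankle was 1307 to 1421 CPM in the controls and 1560 to 1662 CPM with MSU. Many of these genes answer other signals too, and Cldn5 is also among the endothelial markers and Lgr5 among the receptors counted above. Notum is also in the secretion list, Apcdd1 among the co-receptors and Tcf7 in the beta-catenin core, so the lists are not independent.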

How the data were processed

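RNA was measured in 18 bulk libraries, made from TRIzol-extracted total RNA with a VAHTS Universal V6 kit, per the labels. The deposited values are whole, unnormalized read counts of the authors, with Ensembl genes as rows, libraries as columns and a separate table for each tissue. The submitters' processing notes name HISAT2, HTSeq 0.11.3, DESeq2 and mm39, while the annotation release and strand setting are not given in the sources used here. Symbols and exon lengths come from GENCODE M21, which matched 52083 of 55359 IDs. The genes followed, the gene lists and the tests were chosen with earlier results of these data known. Library totals were 11633000 to 38813000 counts to 5 digits. Per tissue, genes were kept by filterByExpr (minimum count 10, minimum total 15), TMM-scaled, and compared by the robust quasi-likelihood test of edgeR 4.0.16 in R 4.3.3, with Benjamini-Hochberg adjustment over all genes tested and a threshold of 0.05. CPM are counts over the TMM effective library size, and the SE is the log2 fold change over the square root of F. Differences in response were interaction contrasts over all 18 libraries and 20757 genes. Every gene of the set could be named; values per library are given for up to 10 called genes per tissue with the smallest adjusted p and no overlap, for genes called in more than 1 tissue, for the largest called differences and for the 3 highest control levels, and lists name up to 4 called genes per tissue. Alternatives were RLE and upper quartile factors, no filter, a mean count of 10, DESeq2 1.42.0, a replicate block, a joint fit, each library left out, and a minimum log2 fold change of 1. A block of the numbers in the sample descriptions was added for the differences after seeing the data. The tests were also run on simulated independent counts with the spread that edgeR estimated, which cannot show whether the calls made here hold.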

Additional observations from a re-analysis of the deposited data

Results flagged for a closer look

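The responses to MSU of the genes named here differed between tissues in the edgeR test of the difference itself, over 18 libraries; values are differences of log2 fold changes, the first tissue minus the second. Ankle minus DRG gave 0.80 for Sfrp1, -3.18 for Dkk2, -3.10 for Fzd2, -2.73 for Rspo2 and -2.47 for Wnt7b. Ankle minus spinal cord gave 1.63 for Fzd10, -3.15 for Rspo2, -2.72 for Wnt3, -2.66 for Fzd2 and -2.58 for Sfrp5. DRG minus spinal cord gave 2.43 for Dkk2, -1.16 for Wnt11, -0.99 for Wnt3, -0.64 for Fzd8 and -0.47 for Sfrp1. The first 10 and that of Dkk2 between DRG and cord were called in every setting tried; the last 4 were each lost in at least 5 settings.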

How the results depend on the processing

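The ankle falls were stable in number, and the smaller counts were not. On leaving out each library in turn, ankle rises numbered 2 to 4 and falls 21 to 25, DRG rises 2 to 8 and falls 3 to 9, and cord rises 2 to 4 and falls 3 to 6; genes whose responses differed numbered 20 to 25 (ankle and DRG), 18 to 22 (ankle and cord) and 1 to 6 (DRG and cord). Against 4 ankle rises, 7 DRG rises, and 4 rises and 5 falls in the cord, the joint fit of 18 libraries called 2, 2, 2 and 3. With a log2 fold change of at least 1, there were 0 ankle rises, 3 rises and 0 falls in the DRG, and 0 rises and 3 falls in the cord. Against 5 differences between DRG and cord, upper quartile scaling called 3 and the fit without a count filter 2. Every alternative fit, the fold change requirement aside, kept 20 of 30 ankle calls, 2 of 14 DRG calls and 4 of 9 cord calls. Over the called fold changes and the alternative fits, 583 values kept their side of the threshold and 106 lost it, and over the 15 differences listed above 241 kept it and 44 lost it; none of these changed sign. The cause was not tested.

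Whether the replicate numbers of the titles pair the libraries could not be settled from correlations of deviations between control and MSU libraries. Same-numbered libraries had 0.268, 0.18 and -0.109 (ankle), 0.122, 0.091 and -0.007 (DRG) and 0.219, 0.095 and -0.14 (cord). Libraries of unlike number had -0.422 to 0.331 (ankle), -0.136 to 0.065 (DRG) and -0.284 to 0.188 (cord). With a replicate block the rises and falls were 3 and 24 (ankle), 5 and 6 (DRG) and 5 and 5 (cord), and 21, 21 and 5 responses differed. In the descriptions, numbers recur within a treatment across tissues. None of the 12 pairs of libraries that share one correlated above 0.1. With these numbers as a block, chosen after seeing the data, 22 responses differed between ankle and DRG, 19 between ankle and cord and 6 between DRG and cord. Scaling moved the split of all genes in the tests of differences: between ankle and cord 1899 more positive and 3643 more negative, 2435 more positive and 3062 more negative with RLE and 2644 more positive and 3277 more negative in DESeq2 (median shifted from -0.16 to -0.05), and between DRG and cord 646 more positive and 2169 more negative against 1042 more positive and 1356 more negative with upper quartile factors (median from -0.05 to 0.05). Wnt1, Wnt3a, Wnt9b and Wnt10b had too few counts for a test in the DRG and the cord, although library totals there lay within the range of those of the ankle, so nothing is said of them in these tissues at this depth.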
